A study of Mus musculus with 24 samples.

Results

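The 9 genes described here encode proteins that hold neighbouring epithelial cells together. They are the cadherins Cdh1 and Cdh2, the tight junction membrane proteins Ocln, Cldn1, Cldn2, Cldn3 and F11r, and the tight junction plaque proteins Tjp1 and Cgn. They were chosen by name and matched through their gene identifiers, and they make up 9 of the 18171 genes in the deposited table. All 9 passed the filter on low values, which kept genes with at least 1 FPKM (fragments scaled to transcript length and to the mapped total of the library) in at least 6 libraries and left 10532 genes to test. In livers of L2d13 mice, 3 of the 9 rose against wild type over all 24 libraries, at an adjusted p under 0.05 by limma. Of all 10532 genes tested, 25.9% were called higher in this way and 4.86% lower, so the share of the 9 lay near the background. On the scale of FPKM + 1, which understates the change of low genes, Ocln rose by 1.45-fold, Tjp1 by 1.39-fold and Cdh1 by 1.33-fold. None of the 9 was called lower. The calls of Ocln and Tjp1 held under more of the other settings tried than that of Cdh1.

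The study sequenced liver RNA of C57BL/6 mice on the BGISEQ-500 platform, in 12 libraries of mice overexpressing L2d13 and 12 of wild-type (WT) mice. L2d13 is written L2 delta13 in the labels, which leave L2 unexplained; that name elsewhere denotes a Loxl2 splice form lacking exon 13, Loxl2 being an enzyme that crosslinks matrix proteins. The sample names carry the digit 2 or 4, whose meaning is not given, so the libraries form 4 groups of 6: L2d13 set 2 (replicates 1 to 6) with WT set 2 (replicates 1 to 6), and L2d13 set 4 (replicates 7 to 12) with WT set 4 (replicates 7 to 12). Age, sex, and the promoter and cell type that drive the transgene are not given in the sources used here. The labels give no other allele or treatment. Running numbers in the sample names form a separate block for each group, and within a set the effect of genotype cannot be told apart from that of the numbering. The labels do not state that each library is a separate animal. The p-values therefore refer to the spread between libraries, some of which may be technical.

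All 10 hepatocyte markers were detected in every library, and their FPKM summed to between 30131 and 56759 in L2d13 livers and between 50867 and 61514 in WT livers. Loxl2 averaged 1.5 ± 0.384 FPKM in L2d13 livers and 0.680 ± 0.254 FPKM in WT livers (SD, n = 12 each). Gm21451, a predicted gene whose annotated transcript shares 84.4% of its 31-base words with Loxl2, had 40.63 to 266.18 FPKM in L2d13 livers and 0.03 to 1.27 FPKM in WT livers. Every library thus matched its genotype label. Total fragment numbers cannot be read from FPKM, so the depth is unknown. The FPKM worth of 1 fragment, relative to the typical library, could be read from the steps between low values. It lay between 1.036 and 1.294 in 7 libraries, called those of high fragment value here, and between 0.953 and 1.016 in the other 17. The 7 were 2 of 12 L2d13 and 5 of 12 WT, and 4 of them were set 4 WT replicates 9 to 12. Set 2 L2d13 replicate 3 stood apart in its cell markers: its summed cholangiocyte markers reached 143.74 FPKM, against 87.42 FPKM in set 2 WT replicate 6 and at most 46.86 FPKM in the other 22 libraries. The same library had the lowest sum of hepatocyte markers, and the next L2d13 library had 45704 FPKM.

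Epithelial cells are joined by belts of adhesion and sealing proteins. In the adherens junction, classical cadherins bind their like on the next cell and are tied to actin by catenins. In the tight junction, claudins form the strands that seal or selectively open the path between cells, occludin and junctional adhesion molecules lie beside them, and plaque proteins of the zonula occludens and cingulin families anchor the complex to the cytoskeleton. In liver these junctions close the bile canaliculi between hepatocytes and line the bile ducts, so that bile and blood stay apart, and hepatocytes carry both E-cadherin and N-cadherin. Loxl2 has been linked to repression of the E-cadherin gene, together with the transcription factor Snail, in cultured tumour cells.

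FPKM is a value per length, so the levels of the 9 genes can be set side by side. The order was the same in both genotypes: Cldn3 was highest, then F11r, Cldn1, Cldn2, Cdh2, Cgn, Cdh1, Tjp1 and Ocln. Cldn3 averaged 73.6 ± 16.8 FPKM in L2d13 livers and 64.9 ± 18.9 FPKM in WT livers (SD, n = 12 each), and ranked 971 of 18171 genes by mean FPKM. At the other end, Ocln averaged 4.93 ± 1.13 FPKM in L2d13 livers and 3.07 ± 0.771 FPKM in WT livers, and ranked 6969. Some neighbours in this order were not separated by their spread. Cldn1 lay above Cldn2 in 10 of 12 L2d13 libraries and in 6 of 12 WT libraries, and Cldn2 lay above Cdh2 in 9 of 12 and in 6 of 12. Cdh1 lay above Tjp1 in 8 of 12 L2d13 libraries and in 7 of 12 WT libraries. Cldn3 exceeded F11r in all 12 libraries of each genotype.

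**Figure D1:**
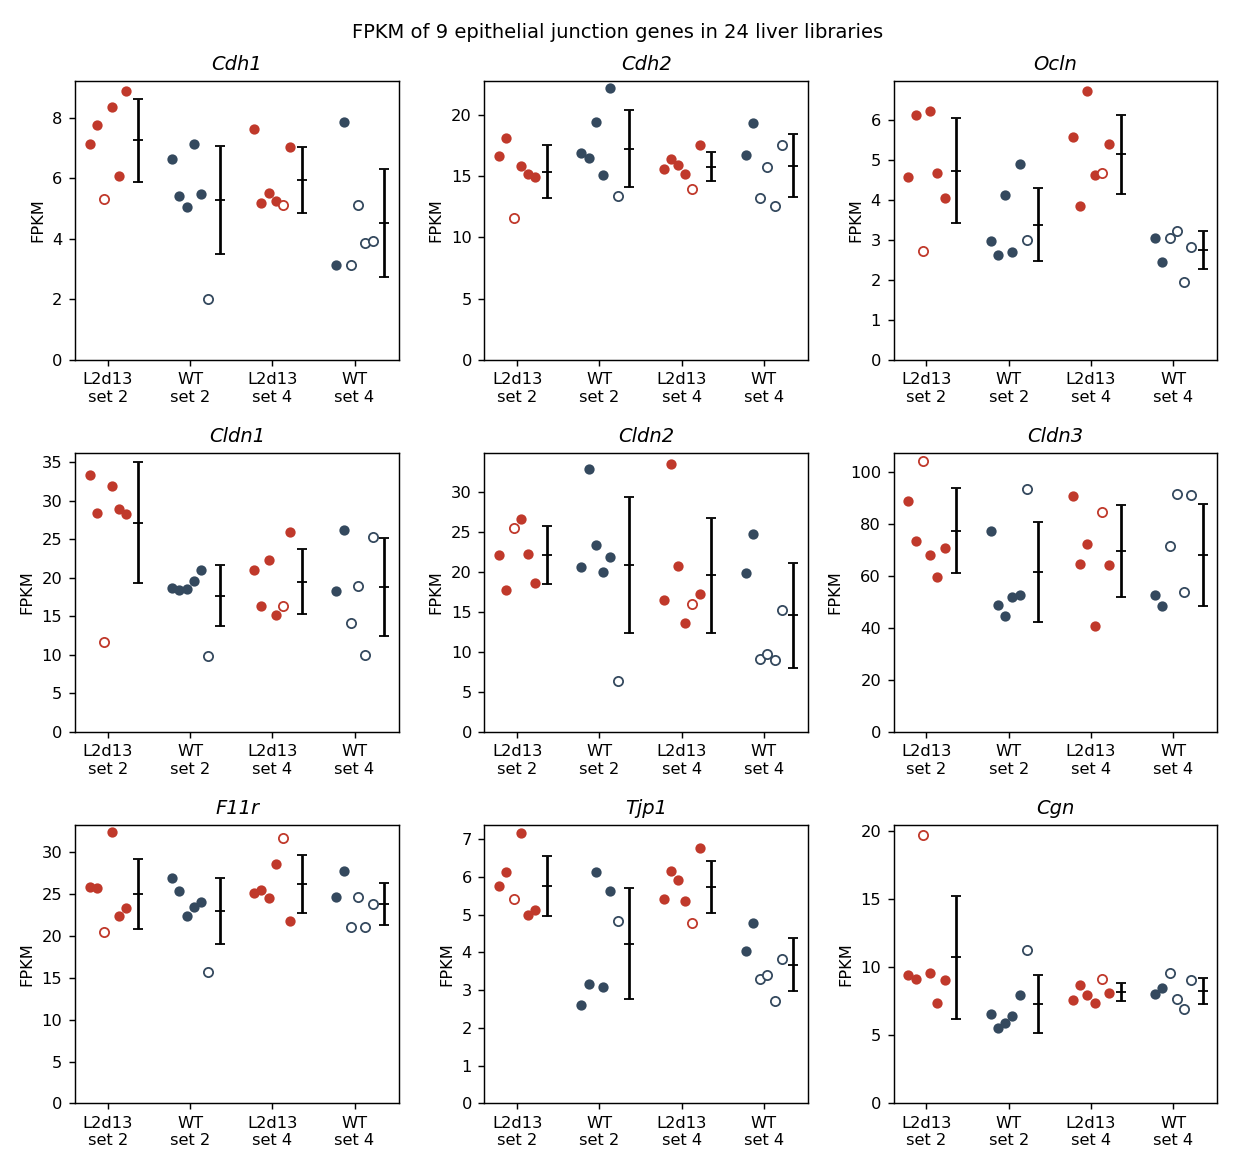
FPKM of the 9 junction genes in each of the 24 liver libraries, as points in replicate order, with the mean and SD of each group of 6 as a bar; open points are the 7 libraries of high fragment value. In set 4, all 6 L2d13 points of Ocln and of Tjp1 lie above all 6 WT points. The share of all tested genes that separate in this way was not counted.

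The adherens junction gene Cdh1 (gene 12550, chromosome 8: 106603351 to 106670246, GRCm38, plus strand) encodes E-cadherin. In set 2 its lowest, median and highest FPKM were 5.31, 7.45 and 8.88 in L2d13 livers and 2.01, 5.46 and 7.13 in WT livers. In set 4 they were 5.11, 5.39 and 7.62 in L2d13 livers and 3.15, 3.91 and 7.87 in WT livers. All 12 L2d13 libraries lay above the WT mean of their set, while the ranges of the genotypes overlapped in both sets. Over both sets Cdh1 was higher by 0.41 ± 0.14 (SE) in log2(FPKM + 1), and its adjusted p by limma was 0.0298, with Benjamini-Hochberg adjustment over 10532 genes. Within the 17 libraries of common fragment value, 10 L2d13 and 7 WT, the difference was 0.28 with an adjusted p of 0.137. The call was also lost without set 2 L2d13 replicate 6 (adjusted p = 0.0508) and without set 4 WT replicate 9 (adjusted p = 0.0544). Over 37 other settings, which include leaving out each of the 24 libraries in turn, Cdh1 was called in 28, with adjusted p between 0.00585 and 0.245. By limma it was not called under median-of-ratios scaling (adjusted p = 0.189) or quantile normalization (0.200). Nor was it called without the filter on low values (0.0518), with a term for fragment value class (0.0686) or with the replicate number as a block (0.0630). In bulk liver, a change in the number of cells that carry a transcript and a change in its amount per cell cannot be told apart.

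Cdh2 (gene 12558, chromosome 18: 16588877 to 16809246, GRCm38, minus strand) encodes N-cadherin, the other classical cadherin of hepatocytes. It averaged 15.6 ± 1.68 FPKM in L2d13 livers and 16.6 ± 2.85 FPKM in WT livers (SD, n = 12 each). Its log2 difference was -0.07, with a 95% confidence interval of -0.25 to 0.10 and an adjusted p of 0.544 by limma. The ratio of Cdh1 to Cdh2 was 0.426 ± 0.0816 in L2d13 livers and 0.295 ± 0.0951 in WT livers, and ran from 0.317 to 0.594 in L2d13 livers and from 0.150 to 0.472 in WT livers. The ratios of the genotypes overlapped, and no test was made of them.

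Ocln (gene 18260, chromosome 13: 100496507 to 100552718, GRCm38, minus strand) encodes occludin, a membrane protein of the tight junction strand. In set 2 its lowest, median and highest FPKM were 2.73, 4.62 and 6.21 in L2d13 livers and 2.63, 2.98 and 4.90 in WT livers, and the ranges overlapped. In set 4 they were 3.85, 5.03 and 6.73 in L2d13 livers and 1.94, 2.93 and 3.22 in WT livers, with no overlap. How many of all genes separate in this way was not counted. Set 2 L2d13 replicate 3 lay below the WT mean of its set, and the other 11 L2d13 libraries lay above theirs. Over both sets Ocln was higher by 0.54 ± 0.11 (SE, adjusted p = 0.000868, limma). In set 4 alone the log2 difference was 0.70 ± 0.15 (adjusted p = 0.00441), and in set 2 it was 0.38 ± 0.15 (adjusted p = 0.101). Within the 17 libraries of common fragment value the difference over both sets was 0.56 (adjusted p = 0.00382). Ocln was called over both sets under all 36 other settings in which it was tested.

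Tjp1 (gene 21872, chromosome 7: 65296165 to 65527781, GRCm38, minus strand) encodes ZO-1, the plaque scaffold that ties claudins and occludin to actin. In set 2 its lowest, median and highest FPKM were 4.99, 5.60 and 7.16 in L2d13 livers and 2.60, 3.995 and 6.12 in WT livers, and the ranges overlapped. In set 4 they were 4.79, 5.67 and 6.76 in L2d13 livers and 2.72, 3.62 and 4.77 in WT livers. The lowest L2d13 library of set 4 thus lay just above the highest WT library. The share of all tested genes with such a separation was not counted. All 12 L2d13 libraries lay above the WT mean of their set. Over both sets Tjp1 was higher by 0.47 ± 0.10 (SE, adjusted p = 0.00137, limma). The log2 difference was 0.53 ± 0.15 in set 4 (adjusted p = 0.0195) and 0.41 ± 0.15 in set 2 (adjusted p = 0.0601). Within the libraries of common fragment value the difference over both sets was 0.42 (adjusted p = 0.0241). In set 4 only 2 WT libraries have a common fragment value, and there the difference was 0.35 with an adjusted p of 0.342. Without set 4 WT replicate 11 the set 4 call was lost (adjusted p = 0.0576).

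The 250 bases before the RefSeq start of Ocln and of Tjp1 are shown because these 2 genes carry the calls that held under the most settings. They were read from RefSeq on GRCm38.p6, on the minus strand, 5′ to 3′. Capitals mark the GC box, GGGCGG or its reverse complement CCGCCC.
Ocln, chr13:100552719-100552968: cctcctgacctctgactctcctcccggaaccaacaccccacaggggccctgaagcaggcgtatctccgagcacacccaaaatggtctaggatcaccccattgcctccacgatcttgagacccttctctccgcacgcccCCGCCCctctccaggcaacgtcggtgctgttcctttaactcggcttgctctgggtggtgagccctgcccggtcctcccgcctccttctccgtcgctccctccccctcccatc
Tjp1, chr7:65371245-65371494: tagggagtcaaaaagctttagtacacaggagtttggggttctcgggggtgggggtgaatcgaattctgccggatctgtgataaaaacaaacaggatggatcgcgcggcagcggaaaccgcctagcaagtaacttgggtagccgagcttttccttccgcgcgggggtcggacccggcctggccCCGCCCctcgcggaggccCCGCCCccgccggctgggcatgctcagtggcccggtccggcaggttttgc
The Ocln window ends at the outermost annotated start of the gene, while the Tjp1 window lies inside the longer GENCODE model of Tjp1. The Ocln window held 1 GC box and the Tjp1 window 2, and their GC contents were 64.0% and 63.2%, against a median of 52.4% over all promoters of the RefSeq table. A GC box on either strand was found in 7 of the 8 windows of the 7 junction genes in that table, against 32.7% of all 32851 promoters and 56.8% of the 10885 promoters of tested genes. The E-box CAGGTG or CACCTG, the word bound by Snail-type factors, was found in 2 of the 8 windows, 1 of F11r and 1 at a later start of Ocln, against 15.3% of the promoters of tested genes. CCAAT or ATTGG was found in 3 of 8, against 35.3%. No match overlapped another, and a match describes the sequence only.

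The claudins were not called in any comparison of the genotypes. Cldn1 (gene 12737, chromosome 16: 26356642 to 26371841), a sealing claudin of the bile canaliculus, averaged 23.3 ± 7.22 FPKM in L2d13 livers and 18.2 ± 5.05 FPKM in WT livers (SD, n = 12 each). In set 2 its lowest, median and highest FPKM were 11.65, 28.7 and 33.42 in L2d13 livers and 9.88, 18.6 and 21.0 in WT livers. There, 5 of 6 L2d13 libraries lay above every WT library, and the sixth was replicate 3, the library with the high cholangiocyte markers. The lowest WT library was replicate 6, which had the second highest cholangiocyte markers. In set 2 the log2 difference was 0.56 ± 0.24 (SE, adjusted p = 0.112, limma), and in set 4 it was 0.09 ± 0.24 (adjusted p = 0.824). Over both sets it was 0.32 ± 0.17 (adjusted p = 0.149). Without set 2 L2d13 replicate 3 it was 0.42 (adjusted p = 0.0375), the only 1 of 37 other settings to call Cldn1. Without both that library and set 2 WT replicate 6 it was 0.33 (adjusted p = 0.0538, limma).

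Cldn2 (gene 12738, chromosome X: 139800828 to 139811386) forms a channel for cations and water. It averaged 20.9 ± 5.59 FPKM in L2d13 livers and 17.7 ± 7.96 FPKM in WT livers. It varied most of the 9 among WT libraries, with a coefficient of variation of 44.9% there against 26.8% in L2d13 livers. Its log2 difference over both sets was 0.32, with a 95% confidence interval of -0.09 to 0.73 (adjusted p = 0.231, limma), and it turned to -0.15 within the libraries of common fragment value. The 4 WT libraries of set 4 with a high fragment value had 8.96 to 15.2 FPKM, and the other 2 had 19.8 and 24.7 FPKM. Cldn3 (gene 12739, chromosome 5: 134986214 to 134987472), the most abundant claudin of these livers, differed by 0.19 with an interval of -0.11 to 0.50 (adjusted p = 0.336).

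F11r (gene 16456, chromosome 1: 171437535 to 171464603) encodes the junctional adhesion molecule JAM-A. It was the steadiest of the tight junction membrane genes: it averaged 25.7 ± 3.69 FPKM in L2d13 livers and 23.4 ± 3.18 FPKM in WT livers. Its log2 difference was 0.13, with a 95% confidence interval of -0.05 to 0.30 (adjusted p = 0.270, limma), and -0.01 under median-of-ratios scaling. Cgn (gene 70737, chromosome 3: 94760069 to 94786492) encodes cingulin, which links the plaque to actin and myosin. It averaged 9.46 ± 3.34 FPKM in L2d13 livers and 7.79 ± 1.66 FPKM in WT livers. In set 2 L2d13 livers it had 7.36 to 9.57 FPKM in 5 libraries and 19.77 FPKM in replicate 3, against 5.55 to 11.3 FPKM in WT. In set 4 the genotypes ran together, with 7.41 to 9.17 FPKM in L2d13 livers and 6.94 to 9.56 FPKM in WT livers. The log2 difference was 0.47 ± 0.17 in set 2 (SE, adjusted p = 0.0573) and -0.01 ± 0.17 in set 4 (adjusted p = 0.967). The difference between these effects was -0.48 ± 0.23 (adjusted p = 0.702).

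Over both sets, 3 of the 9 genes were called higher and 0 lower in L2d13 livers. Of all 10532 genes, 25.9% were called higher and 4.86% lower, so the share of the junction genes lay near the background. Their median log2 difference was 0.32, against 0.12 for all tested genes. In set 4, 2 of 9 were called higher (Ocln and Tjp1), and 0 lower, against 10.3% and 2.97% of all genes. In set 2 limma called 0 of 9 in either direction, against 13% of all genes called higher and 2.13% lower. At an unadjusted p under 0.05, 5 of 9 were higher, and the share of all genes at that looser threshold was not counted. No junction gene was called for the difference of the genotype effects between sets, where 0.152% of all genes were, and 0 of 9 had an unadjusted p under 0.05. Set 4 against set 2 gave 0 calls among the 9 in L2d13 livers, where 6.06% of all genes were called, and 0 in WT livers, where 0.19% were. In both, 0 of 9 had an unadjusted p under 0.05.

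**Figure D2:**
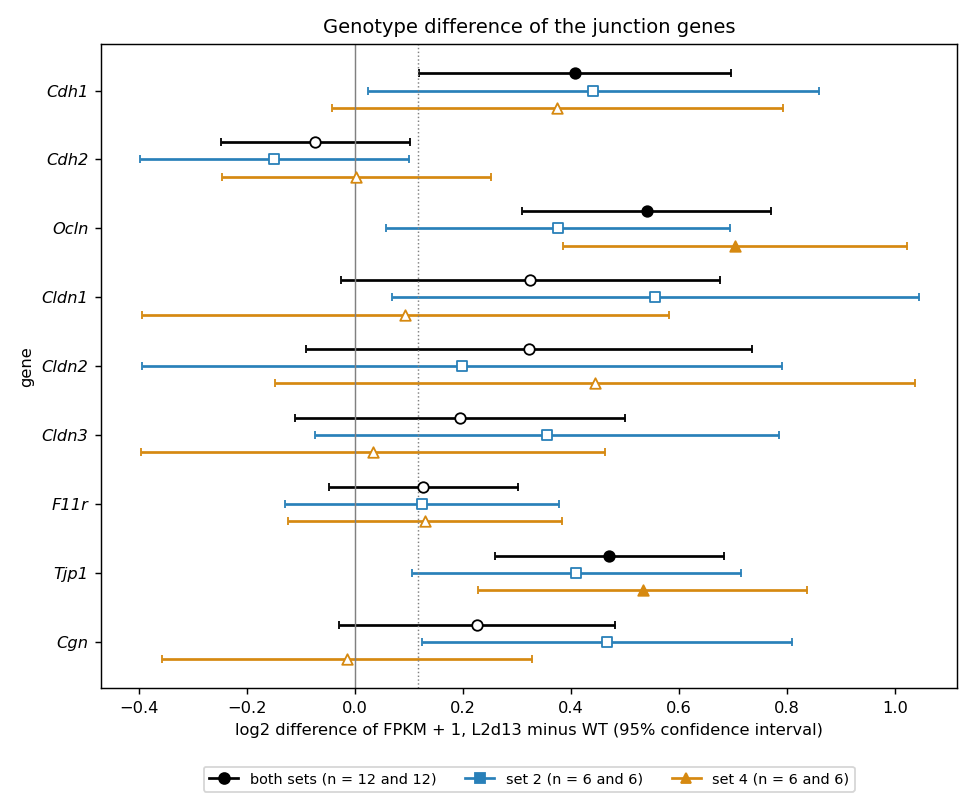
Log2 difference of FPKM + 1, L2d13 minus WT, for each junction gene over both sets and within each set, with 95% confidence intervals; filled symbols are called at an adjusted p under 0.05, and the dotted line is the median of all tested genes, 0.12. Over both sets Cdh1, Ocln and Tjp1 are filled, and the Cdh2 point lies left of 0.

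The scaling of the libraries bears on these counts, because it moves all genes together. Under median-of-ratios scaling the median of all tested genes shifted by -0.11 to 0.00, and the genes called became 10.7% higher and 11% lower. Scaling to TPM shifted that median by 0.10 to 0.22. Measured from the median of all genes, Ocln stood at 0.42 as deposited, 0.43 under median-of-ratios scaling and 0.46 under TPM scaling. Tjp1 stood at 0.36, 0.36 and 0.38, and both genes were called under all 3. Cdh1 stood at 0.29, 0.29 and 0.31, but its adjusted p was 0.189 under median-of-ratios scaling.

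**Figure D3:**
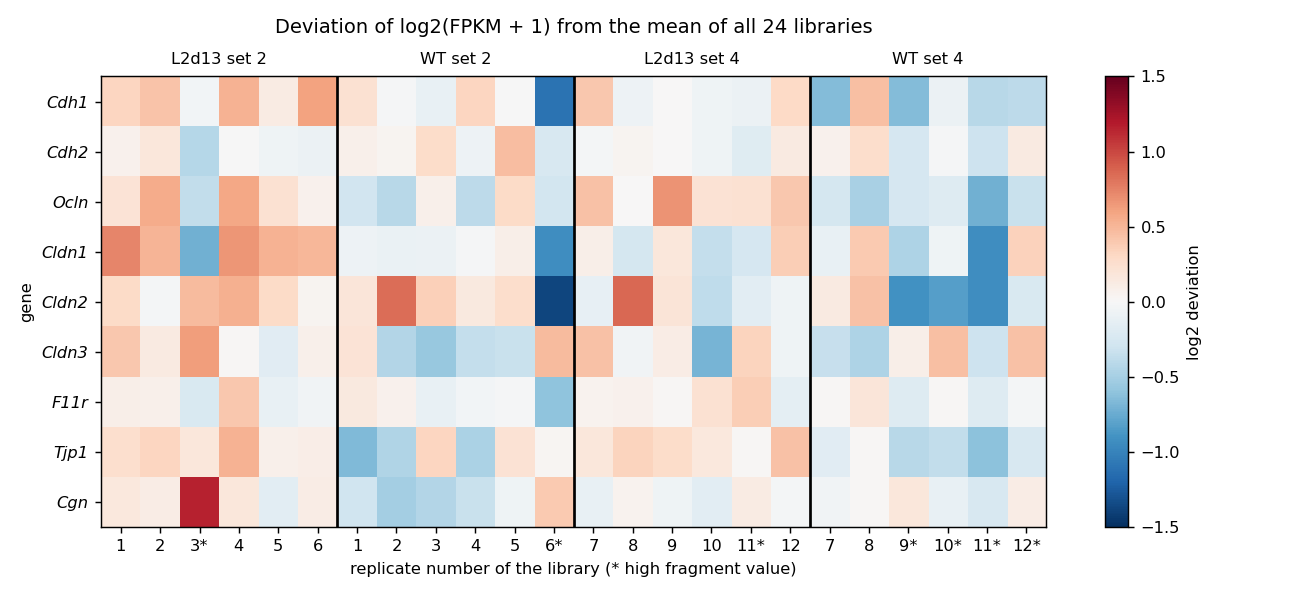
Deviation of log2(FPKM + 1) of each junction gene from its mean over all 24 libraries, by library; stars mark the 7 libraries of high fragment value. Set 2 L2d13 replicate 3 has the highest Cgn (19.77 FPKM) with a low Cldn1 (11.65 FPKM), and set 2 WT replicate 6 has the lowest Cdh1 (2.01 FPKM) and Cldn2 (6.34 FPKM).

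After removal of the group means, some of the 9 genes still varied together over the 24 libraries. Of 36 pairs, 4 had an adjusted p under 0.05 by Pearson's r, 3 by Spearman's rho and 2 by both. Of the 36, Cdh2 and Cldn1 were the closest, with Pearson's r = 0.82 (permutation p = 3e-05, adjusted p = 0.00108) and Spearman's rho = 0.72 (permutation p = 0.00021, adjusted p = 0.00756). Without the 2 libraries farthest from the median of Cdh2, r was 0.81, and without the 2 libraries of highest cholangiocyte markers it was 0.72. Cdh1 and Cldn1 had r = 0.67 (permutation p = 0.00119, adjusted p = 0.0214) and rho = 0.62 (permutation p = 0.00209, adjusted p = 0.0251), with r = 0.55 without the 2 farthest libraries. Libraries with more N-cadherin or E-cadherin transcript thus tended to have more Cldn1 within their group. Another 3 pairs passed by 1 of the measures. Cdh2 and Ocln had r = 0.63 (permutation p = 0.00273, adjusted p = 0.0246) and rho = 0.58 (permutation p = 0.00712, adjusted p = 0.0516), with r = 0.43 without the 2 farthest libraries. Cldn3 and Cgn had r = 0.57 (permutation p = 0.00183, adjusted p = 0.022) and rho = 0.54 (permutation p = 0.00716, adjusted p = 0.0516), with r = 0.49 without the 2 farthest libraries. Cdh2 and Tjp1 had r = 0.58 (permutation p = 0.0139, adjusted p = 0.0625) and rho = 0.69 (permutation p = 0.00124, adjusted p = 0.0223), with r = 0.54 without the 2 farthest libraries. Ocln and Tjp1, the pair called in set 4, had r = 0.53 (permutation p = 0.0113, adjusted p = 0.0581) and rho = 0.56 (permutation p = 0.0101, adjusted p = 0.0606), with r = 0.51 without the 2 farthest libraries, so this relation did not pass the correction. Leaving out the 2 libraries of highest cholangiocyte markers lowered r to 0.53 for Cdh1 and Cldn1, and to 0.53 for Cdh2 and Ocln. It lowered r to 0.40 for Cldn3 and Cgn, and raised it to 0.77 for Cdh2 and Tjp1 and 0.61 for Ocln and Tjp1. The fragment value and the marker sums are shared by all genes of a library, and their part in these relations was not tested.

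Among the 10210 other tested genes with an established name, those whose log2(FPKM + 1) followed each junction gene most closely over the 24 libraries are given as a description. For Tjp1 they were Trappc11 (r = 0.95) and Ckap5 (r = 0.94), and after removal of group means the correlations were still 0.92 and 0.88. For Ocln they were Taf1b and Manea (r = 0.89 each), with 0.75 and 0.72 after removal of group means. For Cdh1 they were Ccpg1 (r = 0.83) and Mrpl9 (r = 0.82), and for Cdh2 Gbe1 (r = 0.91) and Acly (r = 0.89). Cldn1 was closest to Lrrc3 (r = 0.90) and Dcaf7 (r = 0.87), Cldn2 to Timm29 and Ogfod1 (r = 0.88 each), and Cldn3 to Btbd2 (r = 0.89) and Rusf1 (r = 0.84). F11r was closest to Zbed5 (r = 0.81) and Atp6v1e1 (r = 0.79), and Cgn to Parp3 (r = 0.93) and Ccdc61 (r = 0.90). The rank correlations of some were lower than r: 0.80 and 0.74 for Cgn, which 1 extreme library enters, 0.76 and 0.78 for Cldn2, and 0.66 and 0.70 for F11r.

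The partners of the 9 genes in the same junctions were described from lists, and each count stands against the 25.9% of all tested genes called higher and the 4.86% called lower, or 10.7% and 11% under median-of-ratios scaling. Of the other adherens junction genes, 4 of 10 tested were called higher and 0 lower: Nectin2, a nectin, by 0.45 ± 0.10; Ctnnd1, p120 catenin, by 0.34 ± 0.11; Afdn, the nectin-binding afadin, by 0.26 ± 0.09; and Jup, plakoglobin, by 0.23 ± 0.09 (log2, SE, adjusted p between 0.00214 and 0.0458, limma). Under median-of-ratios scaling the list had 1 call in each direction. Of the other tight junction membrane genes, 2 of 7 tested were called higher and 0 lower, Marveld2, which encodes tricellulin, by 0.34 ± 0.10 (adjusted p = 0.0131) and Igsf5, a relative of the junctional adhesion molecules, by 0.33 ± 0.12 (adjusted p = 0.0419), with 0 calls under median-of-ratios scaling. Marveld2 is the neighbour of Ocln in the genome, and Gtf2h2, the neighbour on its other side, was higher by 0.40 (adjusted p = 0.0026, limma). Beside the other members, Tarsl2 next to Tjp1 was called higher at 0.44 (adjusted p = 0.0265), and Tstd1 next to F11r was called lower at -0.69 (adjusted p = 0.00224). The remaining tested neighbours were not called. Of the other claudins, 4 of 19 measured passed the filter and limma called 0, with 2 at an unadjusted p under 0.05. The highest of these was Cldn12, with 17.1 ± 3.0 FPKM in L2d13 livers and 13.8 ± 3.52 FPKM in WT livers.

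Of the 18 other plaque genes, 6 were called higher and 0 lower, against 25.9% and 4.86% of all genes, so their share lay near the background. Mpp5, the Crumbs complex scaffold PALS1, rose by 0.41 ± 0.09 (adjusted p = 0.00121, limma). Its binding partner Patj rose by 0.28 ± 0.07 (adjusted p = 0.00293), and Amot, angiomotin, by 0.27 ± 0.07 (adjusted p = 0.00414). Under median-of-ratios scaling the plaque list had 4 calls higher and 2 lower. Desmosome genes had 1 of 7 called higher, the plakophilin Pkp2, at 0.24 ± 0.07 (adjusted p = 0.0134). Gap junction genes had 1 of 4 called lower, the connexin gene Gja4, at -0.38 ± 0.13 (adjusted p = 0.0347), while the hepatocyte connexin Gjb1 had 351 ± 27.1 FPKM in L2d13 livers and 351 ± 55.4 FPKM in WT livers. Under median-of-ratios scaling the desmosome list had 0 calls and the gap junction list 1 lower. The medians of these lists ran from -0.02 for gap junctions to 0.25 for tight junction membrane genes, against 0.12 for all genes.

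**Figure D4:**
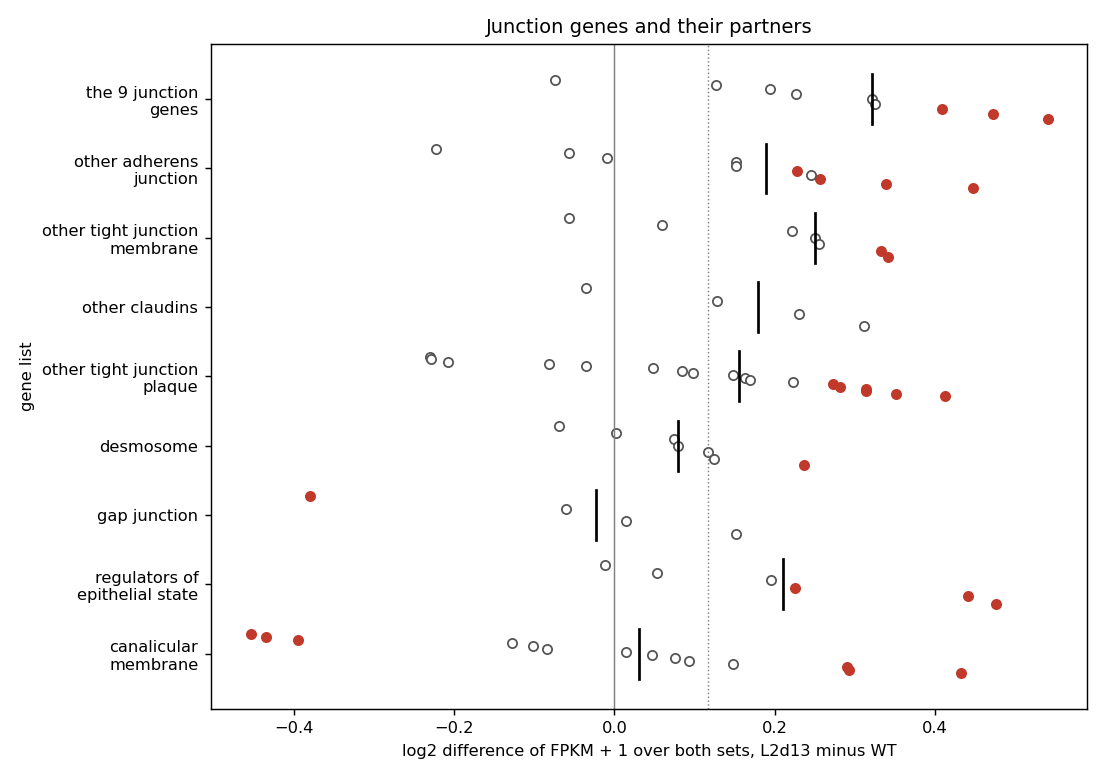
Log2 difference of FPKM + 1 over both sets, L2d13 minus WT, of each tested gene of the junction lists; filled points are called at an adjusted p under 0.05, the black bar is the median of the list and the dotted line the median of all tested genes, 0.12. The median of the 9 junction genes is 0.32, and that of the gap junction list is -0.02.

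Among regulators of the epithelial state, 3 of 6 tested were called higher and 0 lower, against 25.9% and 4.86% of all genes. Esrp2, a splicing factor of epithelial cells, had 41.0 ± 8.72 FPKM in L2d13 livers and 29.8 ± 5.10 FPKM in WT livers (SD, n = 12 each; log2 0.44 ± 0.10 SE, adjusted p = 0.00215, limma). Snai2, which encodes Slug, a repressor of Cdh1, was low, at 1.66 ± 0.728 FPKM in L2d13 livers and 0.893 ± 0.430 FPKM in WT livers, and was called higher (log2 0.48 ± 0.14, adjusted p = 0.0140). Zeb2, another repressor of Cdh1, was called higher by 0.22 ± 0.09 (adjusted p = 0.0483). Snai1, which encodes Snail, did not pass the filter, at 0.933 ± 0.489 FPKM in L2d13 livers and 0.558 ± 0.275 FPKM in WT livers. Under median-of-ratios scaling 1 of the 6 was called. Of the membrane genes of the bile canaliculus, which the tight junctions border, 3 of 14 were called higher and 3 lower, against the same shares. They included the phospholipid transporter Abcb4 (0.43 ± 0.11, adjusted p = 0.00507), the bile salt export pump Abcb11 (-0.39 ± 0.11, adjusted p = 0.00868), the scaffold Slc9a3r1 (-0.43 ± 0.12, adjusted p = 0.00920) and the peptidase Dpp4 (0.29 ± 0.10, adjusted p = 0.0258). Under median-of-ratios scaling 1 of the 14 was called higher and 4 lower.

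Cells other than hepatocytes carry junction genes too, so their markers are set beside these results. Of the cholangiocyte markers, 4 of 12 passed the filter and limma called 0 over both sets, with 0 at an unadjusted p under 0.05. In set 4, where Ocln and Tjp1 were called, 1 of the 4 was called lower, the duct transcription factor gene Sox9, at -0.65 ± 0.17 (adjusted p = 0.0152), and the median of the 4 was -0.32. Of all genes, 2.97% were called lower in set 4. Their summed level ran from 16.96 to 143.74 FPKM in L2d13 livers and from 16.39 to 87.42 FPKM in WT livers. Spp1 made up most of that sum, and the defining marker Krt19 was at 0.06 to 6.25 FPKM in L2d13 livers and 0.37 to 2.17 FPKM in WT livers. Without the 2 libraries of highest cholangiocyte markers, the same 3 junction genes were called higher over both sets and 0 lower, against 28.1% and 7.27% of all genes, with Ocln at 0.60, Tjp1 at 0.50 and Cdh1 at 0.35. The counts of the next 3 lists stand against 25.9% of all genes called higher over both sets. Endothelial markers were called higher for 5 of 10 (Lyve1 by 0.99 and Oit3 by 0.88 on the log2 scale). The sums of these markers were 48.1 to 258 FPKM in L2d13 livers and 33.9 to 136 FPKM in WT livers. Kupffer cell markers were called higher for 3 of 10 (Clec4f by 0.61 and Vsig4 by 0.68), with sums of 76.0 to 376 FPKM in L2d13 livers and 48.2 to 259 FPKM in WT livers. Stellate cell markers were called higher for 2 of 8 (Lrat by 0.49 and Rgs5 by 0.36), with sums of 103 to 464 FPKM in L2d13 livers and 110 to 246 FPKM in WT livers. Lymphocyte and neutrophil markers had 0 of 5 called over both sets and 0 at an unadjusted p under 0.05, while in set 4 the neutrophil gene S100a8 was called lower at -1.12 ± 0.33 (adjusted p = 0.0254). Their sums were 7.73 to 33.1 FPKM in L2d13 livers and 8.44 to 19.5 FPKM in WT livers. Set 2 L2d13 replicate 3 gave the highest L2d13 sum of each of these cell types, and without it the highest were 44.1 FPKM for cholangiocytes, 142 for endothelium, 296 for Kupffer cells, 237 for stellate cells and 13.6 for lymphocytes and neutrophils. Within sets, endothelial calls numbered 3 of 10 in set 2 and 0 in set 4, stellate calls 4 of 8 and 0, and Kupffer calls 0 in both, all higher. Of all genes, 13% were called higher in set 2 and 10.3% in set 4. No mesothelial marker passed the filter. Of the hepatocyte markers 1 of 10 was called higher (Cps1) and 1 lower (Ttr), against 25.9% and 4.86% of all genes. Under median-of-ratios scaling the calls were 2 of 10 for endothelium, 0 of 10 for Kupffer cells and 1 of 8 for stellate cells, all higher, and the hepatocyte markers had 1 of 10 called higher and 3 lower. Of all genes, 10.7% were called higher and 11% lower under that scaling. With a term for fragment value class, 1 hepatocyte marker was called higher and 4 lower, against 28.6% and 4.59% of all genes. The part of these markers in the junction gene results was not tested.

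E-cadherin is a periportal protein in mouse liver, so genes of the lobule zones were also counted. These counts stand against 25.9% of all tested genes called higher over both sets and 4.86% called lower. Of 10 periportal genes 1 was called higher and 0 lower, Ass1 by 0.37 ± 0.14 (adjusted p = 0.0418, limma). Of 10 pericentral genes 4 were called higher and 2 lower, among them Cyp1a2 at -1.08 ± 0.13 (adjusted p = 4.31e-06) and Oat at 0.91 ± 0.16 (adjusted p = 0.00013). Under median-of-ratios scaling 0 of the 10 periportal genes were called in either direction. There, 4 of the 10 pericentral genes were called higher and 2 lower, against 10.7% and 11% of all genes. Within libraries of common fragment value, 0 periportal genes were called higher and 1 lower. Of the pericentral genes, 1 was called higher and 2 lower there, against 14.6% and 5.29% of all genes. Whether the zones bear on the junction genes was not tested.

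Counting near other genes limits a few of these values. Cldn3 meets an antisense gene at its 3′ end, and small non-coding models lie within Tjp1 and antisense to Cdh2. Whether the counting used strand is not stated, so reads of such pairs cannot be told apart.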

How the data were processed

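FPKM per gene from liver RNA-seq was used as deposited by the authors, with 2 decimals, for 18171 genes in 24 libraries; read totals, and so depth, are unknown. Per the submitters' processing notes, HISAT, Bowtie2 and RSEM were used on GRCm38.p5; versions and further normalization are not given in the sources used here. Symbols from the RefSeq table (GRCm38.p6) were found for 18040 identifiers and not for 131. Gene positions are from GENCODE M21 (GRCm38). Columns without a sample numbered 0. The members, the gene lists and the tests were chosen with earlier results of these data known.

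The 10532 genes reaching an FPKM of 1 in 6 or more libraries were tested with limma 3.58.1 (R 4.3.3) on log2(FPKM + 1), with a variance trend. The model for genotype over both sets had set as a covariate; all other contrasts came from a model of the 4 groups. Tests were two-sided, with Benjamini-Hochberg adjustment per contrast, and a gene was called at an adjusted p under 0.05. Differences are L2d13 minus WT, and a fold change on this scale understates the change of low genes. No member was below the filter, so the permutation test planned for low members was not needed. Relations between members used deviations from group means and permutations within groups. The relative FPKM of 1 fragment came from 114 low genes whose values moved in whole steps. Python 3.11.15 was used for tables and plots, and the procedure was tested on simulated data.

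All 9 members are named. Of the other lists, up to 4 called genes of smallest p are named, or up to 2 for cell type and zone lists, and for each member the 2 genes of highest r. A gene that this rule would name is not reported here. Cldn12, Gjb1, Snai1, Krt19, Spp1, Sox9, S100a8, Gtf2h2, Tarsl2 and Tstd1 are named outside that rule, after their values were seen. Other settings changed the pseudocount, the filter, the scaling, the libraries, the variance trend and the replicate block, and left out each library in turn.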

Additional observations from a re-analysis of the deposited data

Results flagged for a closer look

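Within groups of 6 libraries, 4 values of the junction genes lay far from the other 5 by Dixon's test, of 36 combinations of gene and group examined; chance gives about 1 in 20. Cgn was 19.77 FPKM in set 2 L2d13 replicate 3, above the other libraries of its group. Cldn1 was 11.65 FPKM in the same library, below the others. Cldn1 was 9.88 FPKM in set 2 WT replicate 6, below the others of that group. These 2 libraries also had the highest summed cholangiocyte markers, 143.74 and 87.42 FPKM, and relative fragment values of 1.093 and 1.294; the part of either in the values was not tested. Cldn2 was 33.56 FPKM in set 4 L2d13 replicate 8, above the others of its group.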

How the results depend on the processing

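Depth could not be read from the files, which limits what can be said of low genes such as Ocln and Tjp1. In all, 37 other settings were tried. The alternatives without the 2 libraries of highest cholangiocyte markers, and with common fragment value and median-of-ratios scaling together, were chosen after seeing the data. Over both sets, 1 of 9 genes was called higher with common fragment value and median-of-ratios scaling together (9.98% of all genes), where Tjp1 had an adjusted p of 0.0567. In set 2, where 0 were called against 13% of all genes higher, 2 were called higher under TPM scaling (19.3% of all genes), 4 within libraries of common fragment value (18.8%), 3 with a term for fragment value class (20.9%), 3 without the 2 libraries of highest cholangiocyte markers (12.2%) and 1 with common fragment value and median-of-ratios scaling together (4.9%), which also called 1 lower; leaving out 1 library at a time gave 0 to 2. In set 4, where 2 were called against 10.3% of all genes, 1 was called under the filter of FPKM 5, which drops Ocln (11.7%), within libraries of common fragment value (1.7%), with a term for fragment value class (7.59%), with the replicate block (4.87%) and with common fragment value and median-of-ratios scaling together (3.17%); leaving out 1 library at a time gave 1 to 2. For set 4 against set 2 in L2d13 livers, 0 were called lower, against 5.51% of all genes. There, 1 was called lower within libraries of common fragment value (8.38% of all genes). Without the 2 libraries of highest cholangiocyte markers, 1 was called lower (4.67%). The sign turned for genes not called: Cdh2 to 0.029 under TPM scaling, Cldn2 to -0.15 within libraries of common fragment value and -0.22 with median-of-ratios scaling added, and F11r to -0.0085 under median-of-ratios scaling and -0.043 with both. The cause was not tested. Cgn was called over both sets under TPM scaling (adjusted p = 0.0305) and with a term for fragment value class (0.0100), and Cldn3 with that term (0.0283).

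The labels number the replicates of both genotypes alike. The deviations of same-numbered libraries correlated from -0.604 to 0.26. Differently numbered libraries were not compared, so these values cannot show whether the numbers pair the samples. With the replicate block, 2 genes were called higher over both sets (20.3% of all genes) and 1 in set 4 (4.87%). Over both sets the differences were 0.41 for Cdh1 (adjusted p = 0.063, limma), 0.54 for Ocln and 0.47 for Tjp1. No block could be fitted for set 4 against set 2, since the numbers differ between sets.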
